A study of Mus musculus with 2 samples.

Results

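The 10 genes described here encode plasma proteins of the acute phase response and of heme and hemoglobin scavenging: haptoglobin (Hp), hemopexin (Hpx), serum amyloid P component (Apcs), C-reactive protein (Crp), serum amyloids A1, A2 and A4 (Saa1, Saa2, Saa4) and the orosomucoids (Orm1, Orm2, Orm3). They were chosen by gene symbol, and all 10 were among the 43346 genes listed for newborn mouse liver. The data come from the livers of 2 B6NCrl mice on postnatal day 0, pup 1 (replicate 1) and pup 3 (replicate 2), with sex not collected and no treatment or genetic change given in the labels. Each library was made from 13 pg of long RNA from the whole tissue with spike-in RNAs added, the amount the labels equate with 1 cell. The assay is called single-cell, but its input was pooled RNA of all liver cells. The labels describe separate livers under a shared donor entry and give no contrast, so levels in TPM (transcript abundance scaled for length and library size, spike-in RNAs removed), their spread (SD, n = 2) and ratios of pup 1 over pup 3 are given, with no test. In such tissue RNA, fewer cells of a type and less RNA per cell cannot be told apart.

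The acute phase response is the change in the plasma proteins made by hepatocytes after injury or infection, driven by cytokines of the interleukin-1 and interleukin-6 types through NF-kB, C/EBP factors and STAT3. Haptoglobin binds free hemoglobin for uptake through the receptor CD163, and hemopexin binds free heme for uptake through LRP1. In mice serum amyloid P is the pentraxin that responds strongly, whereas C-reactive protein has that role in humans. Serum amyloids A1 and A2 travel on high-density lipoprotein and rise steeply in inflammation, and serum amyloid A4 is the constitutive form.

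Endogenous expected counts, which are estimated reads per gene, came to 54817565 in pup 1 and 34792898 in pup 3. All 10 hepatocyte markers examined, among them Apoa1, Ahsg and Alb, were at 1 TPM or more in both livers (beside 14.9% of protein-coding genes). They summed to 94205 TPM in pup 1, against 79928 TPM in pup 3. Of 10 erythroid markers 7 were detected in both, summing to 133299 TPM in pup 1, against 163586 TPM in pup 3, and of 7 adipocyte and mesothelial markers 1 (Fabp4), with Upk3b detected in pup 1 alone and Msln at 1 expected count in pup 1.

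The members fell into genes that were abundant in both livers and genes with no reads. Hp, Hpx, Apcs and Crp were detected at 1 TPM or more in both livers, Saa4 in pup 3 alone, and Saa1, Saa2, Orm1, Orm2 and Orm3 had 0 expected counts in both. Over all listed genes, 8.2% were detected in both livers, 4.47% in pup 3 alone, and 74.9% had 0 counts in both. Among 21474 protein-coding genes the shares were 14.9%, 8.06% and 58.2%. With 4 of 10 members detected in both livers and 5 of 10 at 0, the members lay above the protein-coding share for detection and near it for absence. The median of the mean levels was 13.9 TPM over the 10 members and 0 TPM over all genes. The members' median rests on Saa4 in pup 3: it was 0 TPM in pup 1, against 27.7 TPM in pup 3, and the median of all genes was 0 TPM in each. Together the members held 0.929% of endogenous TPM in pup 1 and 0.907% in pup 3 (0.918 ± 0.0161%).

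**Figure D1:**
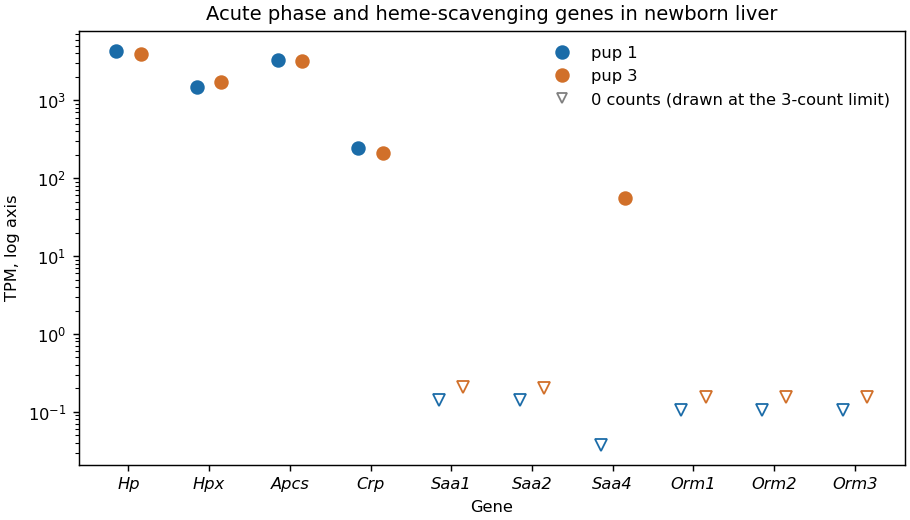
TPM of each gene (log axis) in pup 1 (blue) and pup 3 (orange). Filled circles are measured levels, and open triangles are genes with 0 counts, drawn at the TPM that 3 counts would give. For each of Hp, Hpx, Apcs and Crp, the values of pup 1 and pup 3 lie close together. Saa4 has a level of 55.5 TPM in pup 3 alone, and Saa1, Saa2, Orm1, Orm2 and Orm3 have none.

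Hp was the most abundant member, at 4297 TPM in pup 1, against 3952 TPM in pup 3 (4125 ± 244 TPM). Its rank among all genes was 31 in pup 1, from 223164 expected counts, against 28 in pup 3, from 140822. The gene lies on the minus strand of chromosome 8 from 109575128 to 109579172 (GRCm38, GENCODE M21) and overlaps no other annotated gene. Hp is also transcribed in neutrophil precursors, which the newborn liver still makes. The 12 neutrophil and granulocyte precursor genes examined summed to 7018 TPM in pup 1, against 9376 TPM in pup 3. In both livers 10 of them were detected (beside 14.9% of protein-coding genes), and Cebpe was at 0 counts in both. S100a8 (pup 1 2061, pup 3 4236 TPM), S100a9 (pup 1 1272, pup 3 2464 TPM) and Ngp (pup 1 1560, pup 3 996 TPM) led them. Of the 12 genes, 6 were higher in TPM in pup 1 and 5 in pup 3, and the part of these cells in the Hp level was not tested.

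Hpx had 1490 TPM in pup 1 (85804 expected counts), against 1693 TPM in pup 3 (66869), a mean of 1592 ± 143 TPM. It lies on the minus strand of chromosome 7 from 105591613 to 105600137. Hp exceeded Hpx in both livers, by 2.88 times in pup 1, against 2.33 times in pup 3 (2.61 ± 0.388). Hp and Hpx together made up 62.3% of the members' TPM in each liver.

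The pentraxins Apcs and Crp share chromosome 1, where they lie within a stretch of 196987 bases, and differed widely in level. Apcs (minus strand, 172893961 to 172895041) had 3262 TPM in pup 1, against 3156 TPM in pup 3 (3209 ± 75.3 TPM), and it ranked 39 in each liver. Crp (plus strand, 172698055 to 172833031) had 244 TPM in pup 1, against 210.2 TPM in pup 3 (227 ± 23.9 TPM). The ratio of Apcs to Crp was 13.4 in pup 1, against 15.01 in pup 3 (14.2 ± 1.16). Of the 10 members, Crp alone had more than 1 listed transcript. All of its expected counts, 16259 in pup 1 and 9610 in pup 3, were assigned to the transcript of 1695 bases. The other, of 1894 bases, spans the rest of the annotated gene, where the processed pseudogene Gm38051 lies on the same strand, and was given none.

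The order Hp, Apcs, Hpx, Crp was the same in pup 1 and pup 3, and for each neighbouring pair the lower of the upper gene's levels exceeded the higher of the lower gene's. In 3 of these genes the mean level was over 1000 TPM, a level reached by 103 (0.238%) of all 43346 genes and by 0.438% of protein-coding genes.

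Of the serum amyloid A genes, Saa4 alone was counted, and in pup 3 alone. Saa1 (chromosome 7, minus strand, 46740497 to 46742980) and Saa2 (plus strand, 46751790 to 46754313) had 0 counts in both livers. By counting error alone, a count of 0 for Saa1 allows up to 0.142 TPM in pup 1, against 0.207 TPM in pup 3 (3 counts per library). For Saa2 it allows up to 0.141 TPM in pup 1, against 0.205 TPM in pup 3. Detection often failed to repeat far above these floors. At 10 to 30 TPM, 48.9% of the genes of pup 1 and 51.3% of those of pup 3 were found in the other liver. Saa4 (minus strand, 46727998 to 46732603) had 0 counts in pup 1 and 3044 expected counts, or 55.5 TPM, in pup 3. Its TPM in pup 3 was 1479 times the floor of 3 counts in pup 1, a floor for counting error alone. Of other genes within 2-fold of its pup 3 level, 36.6% were also under 1 TPM in pup 1. The 1479-fold is therefore no lower bound on the difference between the livers. Saa3, the family member that macrophages and other cells make in inflammation, had 0 counts in both livers as well.

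Orm1, Orm2 and Orm3, lipocalins that carry drugs and steroids in plasma, had 0 counts in both livers. They lie side by side on the plus strand of chromosome 4, Orm1 from 63344560 to 63348163, Orm3 from 63356162 to 63359511 and Orm2 from 63362449 to 63365878. For Orm1 and Orm2 a count of 0 allows up to 0.106 TPM in pup 1, against 0.155 TPM in pup 3, and for Orm3 up to 0.107 TPM in pup 1, against 0.155 TPM in pup 3. Such floors hold for counting error alone: PCR copies were not told apart by molecular identifiers.

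The copies within each family are alike in transcript sequence (GENCODE M21, whereas the counts were made on M4). Saa1 and Saa2 transcripts were 94.4% identical over aligned bases, Orm1 and Orm2 91.0%, Orm2 and Orm3 88.5% and Orm1 and Orm3 86.5%. Cut into every window of 100 bases, 1 more than the gap between listed and effective length, Saa1, Saa2, Saa4 and Orm3 shared none with a transcript of any other annotated gene on either strand. Orm1 and Orm2 shared 47 of 676 windows with each other and none with any further gene. The part of such likeness in the 0 counts was not tested.

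The stretches before the start sites are shown for genes without reads (Saa1, Saa2, Orm2) and with reads in both livers (Apcs, Hpx, Crp), because members of these groups lie at opposite ends of the level range. Each runs 5′ to 3′ toward the start site and ends before the first annotated transcript base (RefSeq promoters, GRCm38.p6, entries found for 8 of the 10 members, not Hp or Orm1). Capitals mark matches to 5 motifs searched on both strands.
Saa1, chr7:46742981-46743230, minus strand: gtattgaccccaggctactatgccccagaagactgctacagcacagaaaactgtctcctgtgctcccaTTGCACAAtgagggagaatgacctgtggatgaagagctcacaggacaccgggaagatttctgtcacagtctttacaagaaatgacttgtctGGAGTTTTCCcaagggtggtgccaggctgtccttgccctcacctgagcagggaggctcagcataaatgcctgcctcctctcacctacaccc
Saa2, chr7:46751583-46751789, plus strand: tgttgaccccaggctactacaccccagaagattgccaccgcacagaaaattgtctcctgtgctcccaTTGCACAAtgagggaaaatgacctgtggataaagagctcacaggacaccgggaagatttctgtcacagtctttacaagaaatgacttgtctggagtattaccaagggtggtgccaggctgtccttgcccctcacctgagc
Orm2, chr4:63362199-63362448, plus strand: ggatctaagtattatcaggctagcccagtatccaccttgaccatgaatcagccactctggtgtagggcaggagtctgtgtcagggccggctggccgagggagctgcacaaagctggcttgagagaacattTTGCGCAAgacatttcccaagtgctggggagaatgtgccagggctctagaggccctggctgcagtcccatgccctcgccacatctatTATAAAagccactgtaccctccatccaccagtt
Apcs, chr1:172895055-172895304, minus strand: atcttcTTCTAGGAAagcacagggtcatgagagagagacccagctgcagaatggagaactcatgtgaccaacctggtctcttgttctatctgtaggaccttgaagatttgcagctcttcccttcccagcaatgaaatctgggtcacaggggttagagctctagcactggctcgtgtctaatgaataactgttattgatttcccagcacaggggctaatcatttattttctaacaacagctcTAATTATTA
Hpx, chr7:105600138-105600366, minus strand: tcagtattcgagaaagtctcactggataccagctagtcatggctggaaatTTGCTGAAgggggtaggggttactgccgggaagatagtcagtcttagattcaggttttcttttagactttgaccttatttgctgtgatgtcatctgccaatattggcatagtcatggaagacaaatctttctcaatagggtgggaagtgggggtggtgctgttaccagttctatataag
Crp, chr1:172697806-172698054, plus strand: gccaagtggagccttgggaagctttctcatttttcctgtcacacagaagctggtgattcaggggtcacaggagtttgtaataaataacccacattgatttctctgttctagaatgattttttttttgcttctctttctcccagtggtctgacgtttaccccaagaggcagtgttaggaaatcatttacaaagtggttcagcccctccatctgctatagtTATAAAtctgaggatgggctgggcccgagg

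The C/EBP letters TTGCNNAA occurred in all 4 available promoters of members at 0 counts in both livers (Saa1, Saa2, Orm2, Orm3), in that of Saa4, and in 1 of 3 promoters of members counted in both (Hpx). They occurred in 9.56% of all 32851 mouse promoter windows of 250 bases. All motif letters were chosen with the promoter sequences known, so this share and those below are background and no test. The windows of Saa2 (207 bases), Hpx (229 bases) and Crp (249 bases) are shorter than the background windows. The 4 promoters are 2 pairs of like copies, so their matches are not separate. Saa1 and Saa2 were 94.7% identical and Orm2 and Orm3 89.0% over aligned bases. Hp, the most abundant member, had no promoter entry and is not in the counted group. The NF-kB letters (GG, any 3 bases, TTTCC) occurred in Saa1 alone among the 8 members, 91 bases before the start, and in 4.63% of all windows. The aligned part of the Saa2 promoter is 94.7% identical to that of Saa1 and lacks this match. The STAT3 letters TTCNNNGAA (7.02% of all windows) and the HNF1 letters TAATNATTA (0.588%) occurred in Apcs alone of the 8. The TATA box letters TATAAA (12.4%) occurred in Crp, Orm2 and Orm3. No match shared bases with a match to another motif. These are matches of letters and not binding sites, and their absence says only that the letters are not in the window.

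How far the livers differed was then described for the members. Of the 10 members, 5 averaged 10 or more expected counts, the limit for ratios, and the other 5 had none. On the scale of log2(TPM + 1), pup 1 over pup 3, Hp stood at 0.12, Hpx at -0.18, Apcs at 0.05 and Crp at 0.21, all within 2-fold. Saa4 stood at -5.82 and was the 1 member past 2-fold. Among all 8120 genes over that limit, 67.6% were past 2-fold, and among the 1096 of them with a mean of 100 TPM or more, 33.1% were. The direction of the differences in Hp, Hpx and Apcs turned with the scaling of the libraries. With TMM factors, which scale pup 1 over pup 3 by 0.26 on the log2 scale before the pseudocount, Hpx stood at 0.08, and with DESeq2 size factors (0.26) also at 0.08. With spike-in totals, whose scaling is -0.20, Hp stood at -0.08 and Apcs at -0.16, and per endogenous expected count without length Apcs stood at -0.06. Crp was above 0 under all of these, at 0.48 with TMM factors and 0.01 with spike-in totals.

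**Figure D2:**
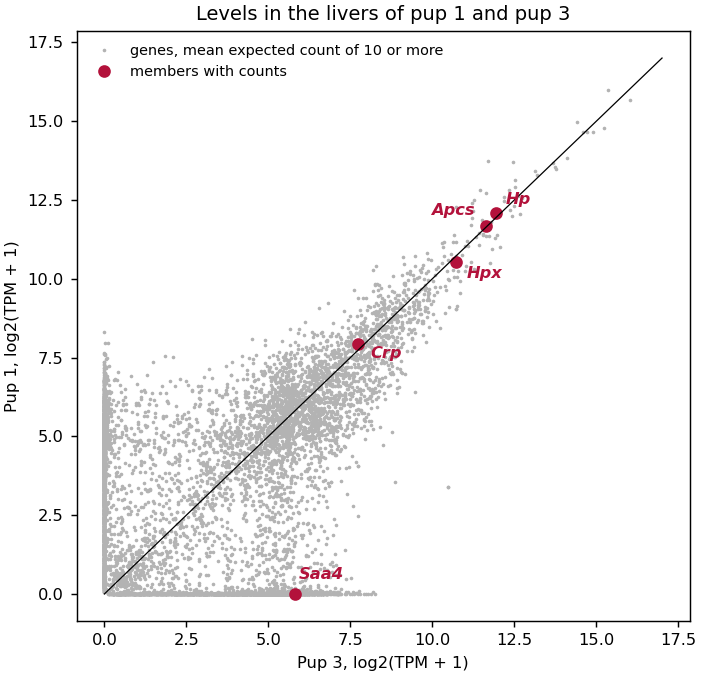
Level in pup 1 (vertical) against pup 3 (horizontal), both as log2(TPM + 1), for genes averaging 10 or more expected counts (grey) and the 5 members among them (red), with the line of equal levels. Hp, Apcs, Hpx and Crp lie near the line, and Saa4 lies on the floor of pup 1 with many other genes.

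Genes of like level give the scale for these ratios. Apcs differed by 0.05 on the log2 scale between pup 1 and pup 3, and 8 of the 49 genes within 2-fold of its mean level differed by less (their median was 0.44). For Hp, at 0.12, 9 of 40 such genes differed by less (median 0.38). For Hpx, at 0.18, 18 of 95 did (median 0.54), and for Crp, at 0.21, 132 of 707 did (median 0.68). Each of these 4 differed by less than the median gene of its level. Saa4, at 5.82, differed by more than the median of 4.98, and 2582 of 2978 genes of its level differed by less. For a gene at 0 in 1 liver, the size of the ratio is set by its level in the other liver. The place of Saa4 therefore does not show whether its difference was unusual. The comparison with genes of like level describes these libraries on the TPM scale and is no test. It was not repeated under the other scalings of the libraries, which shift the ratios.

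The level of Saa4 lies where detection often failed to repeat. Of the 2299 other genes within 2-fold of 55.5 TPM in pup 3, 841 (36.6%) were under 1 TPM in pup 1, and so were 4 of 12 spike-in RNAs of like level. For genes within 2-fold of Crp, 30 of 679 (level in pup 1) and 68 of 840 (level in pup 3) were under 1 TPM in the other liver. Around Hp, Apcs and Hpx no gene was. At 10 to 30 TPM, 48.9% of the genes of pup 1 and 51.3% of those of pup 3 were found in the other liver. The part of such losses in the 0 counts of the Saa and Orm genes was not tested.

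**Figure D3:**
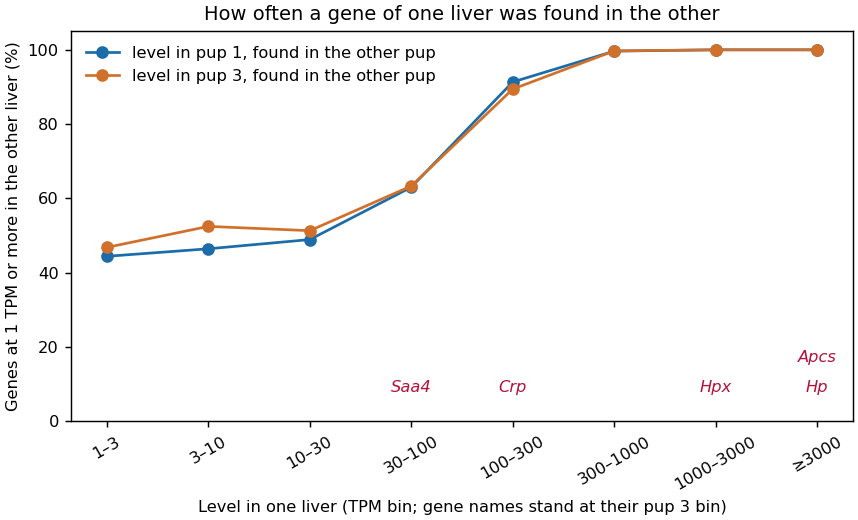
Percent of genes at 1 TPM or more in the other liver, by their level in pup 1 (blue) or pup 3 (orange) in bins of TPM; member names stand at their pup 3 bin. Detection repeated for 63.0% of pup 1 genes and 63.3% of pup 3 genes in the bin of Saa4 (30 to 100 TPM), for 91.3% and 89.4% in that of Crp, and for all genes from 1000 TPM up.

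Of 10 cytokine ligand genes, among them Il6, Il1b, Tnf, Lif and Osm, none was detected in both livers (beside 14.9% of protein-coding genes). Il1a, an alarm cytokine, had 0 counts in pup 1, against 46.5 TPM (2500 expected counts) in pup 3. The other 9 had 0 counts in both, as had 58.2% of protein-coding genes. Of 13 receptor and transducer genes, 4 were detected in both livers, 4 in 1 liver and 5 in neither, beside the 14.9% of protein-coding genes detected in both. Il6st, which encodes the shared signalling chain gp130, had 35.0 TPM in pup 1, against 39.7 TPM in pup 3. Il1r1, the interleukin-1 receptor, had 17.4 TPM in pup 1, against 54.5 TPM in pup 3. Levels of the kinase gene Jak1 (pup 1 44.6, pup 3 87.9 TPM) and of Il10rb, a chain of the interleukin-10 and interleukin-22 receptors (pup 1 38.1, pup 3 132 TPM), were also higher in pup 3. The interleukin-6 receptor gene Il6ra had 0 counts in both livers, as had Osmr, Il22ra1, Jak2 and Tyk2. Detection repeated for 48.9% of pup 1 genes and 51.3% of pup 3 genes at 10 to 30 TPM. The part of such losses in the 0 counts of ligand and receptor genes was not tested. Il1rap (42.8 TPM), Tnfrsf1a (45.8 TPM) and the glucocorticoid receptor gene Nr3c1 (61.5 TPM) reached 1 TPM in pup 1 alone, and Lifr (17.5 TPM) in pup 3 alone.

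Transcription factors and brakes of the response were found in both livers in 2 of 12 cases, a share near the 14.9% of protein-coding genes. In 4 cases they were found in 1 liver and in 6 in neither. Stat3 had 10.5 TPM in pup 1, against 3.32 TPM in pup 3, and Hnf4a, a master regulator of hepatocyte genes, 3.45 TPM in pup 1, against 4.56 TPM in pup 3. Cebpa had 32.5 TPM in pup 1, against 0 counts in pup 3. Nfkbia, an inhibitor of NF-kB, had 0.878 TPM in pup 1, against 132 TPM in pup 3. Among all genes averaging 10 or more expected counts, 67.6% were past 2-fold between the livers. At 0.1 TPM 4 of the 12 were detected in both livers, and at 10 TPM 0 were.

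Other acute phase genes of the liver were mostly detected. Of 25 other genes listed here as rising in the response, 19 were detected in both livers (beside 14.9% of protein-coding genes), 3 in 1 and 3 in neither. Their median was 354 TPM. The fibrinogen chains Fgg (pup 1 9051, pup 3 5843 TPM), Fga (pup 1 6318, pup 3 6221 TPM) and Fgb (pup 1 7199, pup 3 5155 TPM) led, followed by the inter-alpha-trypsin inhibitor chain Itih3 (pup 1 1201, pup 3 1756 TPM). Lcn2, a lipocalin like the orosomucoids and a granule gene of neutrophils, had 596 TPM in pup 1, against 112 TPM in pup 3. Of 9 genes listed here as falling in the acute phase, 7 were detected in both livers (beside 14.9% of protein-coding genes). The list median was 12610 TPM. The transferrin gene Trf (pup 1 64244, pup 3 42243 TPM), the fetuin gene Ahsg (pup 1 32190, pup 3 21893 TPM), Apoa1 (pup 1 25845, pup 3 24917 TPM) and the albumin gene Alb (pup 1 14549, pup 3 17480 TPM) led them.

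**Figure D4:**
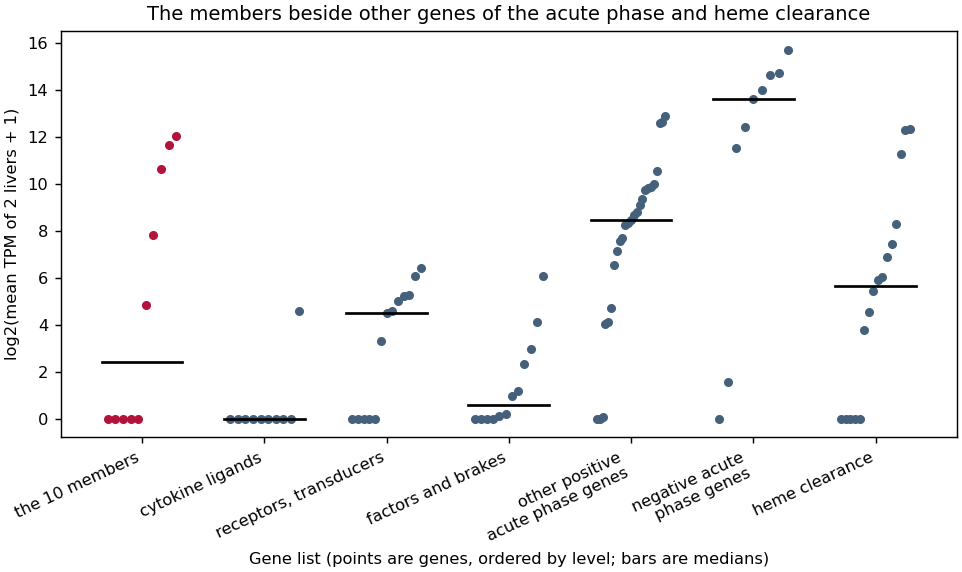
Level as log2(mean TPM of the 2 livers + 1) for the 10 members (red) and for other lists of acute phase and heme clearance genes (blue), 1 point per gene in order of level, with black bars at list medians. The members divide into 5 genes at 0 and 5 above it; the cytokine ligands lie at 0 except Il1a, and the other positive and the negative acute phase genes lie mostly above 6.

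The partners of haptoglobin and hemopexin differed in detection. Cd163, the macrophage receptor of haptoglobin bound to hemoglobin, had 0 counts in both livers. Lrp1, the hemopexin receptor, had 50.2 TPM in pup 1, against 66.3 TPM in pup 3. At 30 to 100 TPM, 63.0% of pup 1 genes and 63.3% of pup 3 genes were found in the other liver. The part of such losses in the 0 counts of Cd163 was not tested. Of 11 Kupffer cell and macrophage markers, 6 were detected in both livers and 5 in pup 3 alone, beside 14.9% and 8.06% of protein-coding genes. Of these 5, Adgre1, Vsig4, Cd68 and Timd4 were under 100 TPM in pup 3, and C1qc had 196 TPM there. Of pup 3 genes at 100 to 300 TPM, 89.4% were found in pup 1. The part of lost detection in the 0 counts of these 5 in pup 1 was not tested. By TPM, 9 of the 11 markers were higher in pup 3 and 2 in pup 1. The markers' summed level was 699 TPM in pup 1, against 1177 TPM in pup 3. C1qb, Clec4f and C1qa led them, and their part in the Cd163 and Lrp1 values was not tested. Of the 16 genes of heme clearance, 8 were detected in both livers (beside 14.9% of protein-coding genes). The ferritin chains Ftl1 (pup 1 5605, pup 3 4672 TPM) and Fth1 (pup 1 4630, pup 3 5245 TPM) were highest. Ambp, whose product includes the heme-binding alpha-1-microglobulin, had 1449 TPM in pup 1, against 3433 TPM in pup 3, and Blvrb, a biliverdin reductase, 296 TPM in pup 1, against 321 TPM in pup 3. Hmox1, the inducible heme oxygenase, had 112 TPM in pup 1, against 17.7 TPM in pup 3. Hmox2 had 1 expected count (0.0107 TPM) in pup 1, against 83.4 TPM in pup 3. Such gaps were common, since 67.6% of genes averaging 10 or more expected counts were past 2-fold between the livers. Transcripts of hemoglobin itself were led by Hba-a2 (pup 1 51908, pup 3 66584 TPM), Hbb-bs (pup 1 28369, pup 3 38842 TPM) and Hba-a1 (pup 1 26042, pup 3 30276 TPM); Hba-a1 and Hba-a2 are near-identical copies, so their split is uncertain.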

How the data were processed

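Extraction (Ambion mirVana) and library making (SmartSeq, which amplifies cDNA by PCR) are as named per the labels' protocols. Per the deposited notes, values refer to mm10 with GENCODE M4 genes and come from a transcriptome alignment; aligner, quantification program and use of strand: not given in the sources used here. The authors deposited expected counts (estimated reads per gene), TPM per effective length, posterior mean TPM with credibility bounds (treated as a score), and isoform percent.

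After removal of spike-in features, TPM was rescaled over the endogenous ones. Genes were matched to GENCODE M21 (same assembly) by identifier without version, 42462 of 43346 in all. Of 148 entries in the gene lists, 2 (Saa-ps and Apcs-ps) matched none. Ratios were taken on log2(TPM + 1), where the pseudocount of 1 shrinks ratios of low genes, for genes averaging 10 or more expected counts. No test was made, since each pup is 1 library. The 2 libraries are not 1 library deposited again (chi-square per degree of freedom 1870.5 over 8120 genes).

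Members, lists and motif letters were chosen with earlier results of these data, and the promoter sequences, known. The rule for named genes took all members, the 4 leading genes per pathway list, all cytokine receptors and ligands counted, the 3 leading genes per marker list, and the genes next to each detected member in the order of mean TPM. Outside it, Saa3, Hmox1, Hmox2, Cd163, Lrp1, Cebpe and the pentraxins at 0 were picked with their values known. Alternatives covered thresholds, pseudocounts, filters, posterior means, protein-coding genes only, thinning of the deeper library, each library alone, and scaling by spike-ins, edgeR TMM factors and DESeq2 size factors on rounded expected counts. Software: R 4.3.3 with DESeq2 1.42.0 and edgeR 4.0.16, and Python 3.11.15 with Biopython 1.88, pandas 2.3.3, numpy 2.4.6 and matplotlib 3.10.9.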

Additional observations from a re-analysis of the deposited data

How the results depend on the processing

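The count of 4 members detected in both livers held at 0.1 TPM, 10 TPM, 10 expected counts and with the deeper library thinned, and was 4 to 5 with each library alone. The summed share of 0.918% was 0.835% as a share of endogenous expected counts and 0.981% over protein-coding genes only, and 0.907% to 0.929% with each library alone. The ratio of Hp to Hpx was 2.33 to 2.88 with each library alone and 2.35 from expected counts without length. In 7 other settings none of Hp, Hpx, Apcs and Crp passed 2-fold between pup 1 and pup 3, with log2 ratios of -0.08 to 0.38, -0.39 to 0.08, -0.16 to 0.31 and 0.01 to 0.48. Saa4 passed it in all 7, from -9.12 with a pseudocount of 0.1 TPM to -2.71 with 10 TPM. The Crp transcript share was 99.99% by posterior means. The planned split of Saa1 from Saa2 and among the Orm genes was not run, since all had 0 counts. Of 20 levels under other settings with both livers kept, 13 stayed within 1 SD of the livers; the 7 outside it include the 5 genes at 0 counts, whose SD is 0 and whose posterior means were 0.0425 to 0.0532 TPM. Of 35 ratios 17 stayed within counting error, and no ratio past 2-fold changed sign. No paired analysis was possible because the 2 libraries form 1 group. In depth, 3 counts come to 0.0547 CPM in pup 1 and 0.0862 CPM in pup 3.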

Other observations

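The genes next to the members in the order of mean TPM are given with their spread (SD, n = 2). Hp lay between Selenop (4770 ± 957 TPM), the selenium carrier of plasma, and the pseudogene Gm28661 (4109 ± 2343 TPM). Apcs lay between mt-Co1 (3305 ± 2287 TPM) and the apolipoprotein gene Apoc1 (3191 ± 975 TPM). Hpx lay between Ppia (1620 ± 587 TPM) and Mgst1 (1513 ± 227 TPM). The SD of Hp, Apcs and Hpx, at 244, 75.3 and 143 TPM (n = 2), was below that of each of these neighbours. Crp, at 227 ± 23.9 TPM, spread more than Hagh (228 ± 12.7 TPM) and 1300017J02Rik (227 ± 8.98 TPM). Saa4 was counted in pup 3 alone, as was its neighbour Knstrn (55.5 TPM in pup 3), whereas Nfia had 51.04 TPM in pup 1, against 4.37 TPM in pup 3.

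Among 11 matched genes of related pentraxins, lipocalins and serum amyloids, 2 were detected in both livers, beside 14.9% of protein-coding genes. These were Rbp4 (pup 1 4286, pup 3 6550 TPM) and Lcn2. Apod had 1 expected count, in pup 3, and Ptgds 2, in pup 1. The long pentraxin Ptx3, the neuronal pentraxins Nptx1 and Nptx2, and the mucosal pentraxins Mptx1 and Mptx2 had 0 counts in both.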
